A study of Homo sapiens with 12 samples.

Results

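The 7 genes described here are the aryl hydrocarbon receptor AHR, its DNA-binding partner ARNT, its repressor AHRR, the ADP-ribosyltransferase TIPARP, and the cytochrome P450 genes CYP1A1, CYP1A2 and CYP1B1. They were taken by gene name from 2 deposited expression tables, and each name matched 1 row with the same identifier in both tables, so they make up 7 of 60630 identifiers that the tables share. The study sequenced RNA of SZ95 sebocytes, a single immortalised human line from the sebaceous gland, in 12 libraries. LA, LA+RVT, PGN and PGN+RVT were the 4 treatments, with 3 libraries each that the submitters call biological replicates. RVT is resveratrol, named in the title of the series. LA and PGN are abbreviations in the labels and are taken to mean linoleic acid, a lipid stimulus, and peptidoglycan, a bacterial cell-wall stimulus. Doses and times are not in the labels, every group carried 1 of these stimuli, and no group without a stimulus was analysed here. The comparisons ask what RVT did to these genes under each stimulus. All values are TPM, a share of the library per transcript length, so levels may be compared between genes but hold no sequencing depth, and no counting interval can be given.

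AHR is a ligand-activated transcription factor of the basic helix-loop-helix PAS family. It waits in the cytosol with HSP90 and co-chaperones. On binding a ligand, such as a polycyclic aromatic hydrocarbon, an indole or a tryptophan metabolite, it enters the nucleus, pairs with ARNT and binds DNA at xenobiotic response elements. CYP1A1, CYP1A2 and CYP1B1 encode the monooxygenases that oxidise many such ligands, and CYP1A1 and CYP1B1 are widely used as readouts of the receptor in skin cells. AHRR and TIPARP are induced by the receptor and restrain it, AHRR by competing for ARNT and TIPARP by ADP-ribosylation. Resveratrol is known as an antagonist of this receptor. RNA levels do not measure its activity.

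The core letters of the response element, GCGTG, are shown where they lie before a start, in the first promoter window of each of 3 members. These are the members with an entry in the RefSeq promoter table (GRCh38.p14) whose libraries with RVT all lay below those without it in at least 1 arm. Both strands were searched in windows of 250 bases before and 50 bases after a start. Each line gives the coding strand with the motif in capitals and 10 bases on each side of the core. In the AHRR line the capitals cover the longer form TNGCGTG, which contains the core.
AHRR, chr5:321674-321698, plus strand: cgggcggcTCGCGTGccggggtggg
TIPARP, chr3:156674372-156674396, plus strand: cgagaaaggaCACGCcccctcgcgg
TIPARP, chr3:156674438-156674462, plus strand: aacgaacgcgCACGCgcgcgcaggg
CYP1A1, chr15:74725571-74725595, minus strand: agggaaggagGCGTGgccacacgta
The AHRR core lies 30 bases before the start, those of TIPARP 208 and 142 bases before it and on the opposite strand (CACGC), and that of CYP1A1 57 bases before it. The TIPARP and CYP1A1 stretches lie in exons of longer transcripts in GENCODE 29. Of the 7 members 6 had an entry, all but CYP1B1. The core was also found in a second AHRR window, 247 and 42 bases before its start, and in that of AHR, there after the start. It was not found in the other TIPARP windows or in those of ARNT and CYP1A2. Of all 35116 windows, 36.5% held the core and 5.51% the longer form, so a match is common and describes the letters of this window only. The enhancer through which CYP1A1 is best known to respond lies farther upstream than these windows.

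The libraries held 14489 to 15452 genes at 1 TPM or more. Of 11 sebocyte markers, 8 had a mean of at least 1 TPM in every group. Their sum stood at 1630 to 1665 TPM with LA, 1876 to 1910 TPM with LA+RVT, 2078 to 2189 TPM with PGN and 2155 to 2219 TPM with PGN+RVT, without overlap between the groups of the LA arm. MC5R and AWAT2, genes of late sebaceous differentiation, were under 0.1 TPM in every library. RVT effects were tested with limma on log2(TPM + 1), over genes averaging 1 TPM or more in the libraries of the fit. A gene was called at a Benjamini-Hochberg adjusted p under 0.05. Where a gene is said to rise or fall with LA or with PGN, the change is that with RVT under that stimulus. Of 15409 genes in the LA arm 15.7% were called (1645 higher, 781 lower), and of 14622 in the PGN arm 15.6% (1557 higher, 720 lower). With library medians equalised these splits were 1041 against 1080 and 850 against 1020, and with quantile normalization 1030 against 1038 and 966 against 931. The median log2 fold change of all tested genes was 0.036 in the LA arm and 0.064 in the PGN arm. Summed keratinocyte markers (6 found of 7 listed) stood lower with RVT in both arms, at 222 to 233 TPM with LA, 189 to 197 TPM with LA+RVT, 503 to 522 TPM with PGN and 406 to 412 TPM with PGN+RVT, with KRT1 under 0.1 TPM in every library. Summed endothelial markers stood at 17.5 to 17.98 TPM with LA, 7.24 to 8.11 TPM with LA+RVT, 24.8 to 26.5 TPM with PGN and 23.4 to 24.2 TPM with PGN+RVT, with 1 of 5 markers at 1 TPM or more and TEK under 0.1 TPM. Summed melanocyte markers stood at 25.1 to 26 TPM with LA, 29.6 to 32.3 TPM with LA+RVT, 19.4 to 24.4 TPM with PGN and 29.8 to 31.1 TPM with PGN+RVT, with TYR and DCT under 0.1 TPM. Fibroblast and immune markers overlapped between the groups of each arm, with DCN and PDGFRA under 0.1 TPM. The part of these markers in the results below was not tested. In bulk RNA, fewer cells that express a gene and less RNA per cell cannot be told apart.

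With RVT, CYP1B1 fell in both arms, TIPARP and CYP1A1 fell in the PGN arm, and AHR and ARNT were not called in either. Of the 4 members that passed the expression filter in the LA arm, 1 was called, against 15.7% of all genes (5.07% lower). In the PGN arm 3 of 5 were called, against 15.6% of all genes (4.92% lower). All these members were lower, and each by at least 2-fold, as were 0.312% of all genes in the LA arm and 0.568% in the PGN arm. CYP1A1 passed the filter in the PGN arm only through its PGN libraries and so had to differ there, which makes these counts a description. CYP1A2 was at or near 0 throughout, and AHRR was under the filter in both arms and CYP1A1 in the LA arm. Their values below come from the same fit without the filter, in which 5.39% and 4.6% of genes were called. Groups with and without RVT did not overlap for 4 of 7 members in each arm (AHR, AHRR, CYP1A1 and CYP1B1 with LA, and AHRR, TIPARP, CYP1A1 and CYP1B1 with PGN), against 21.9% and 21.3% of all genes with any signal. Among genes that passed the filter, 36.2% and 36.1% did not overlap.

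**Figure D1:**
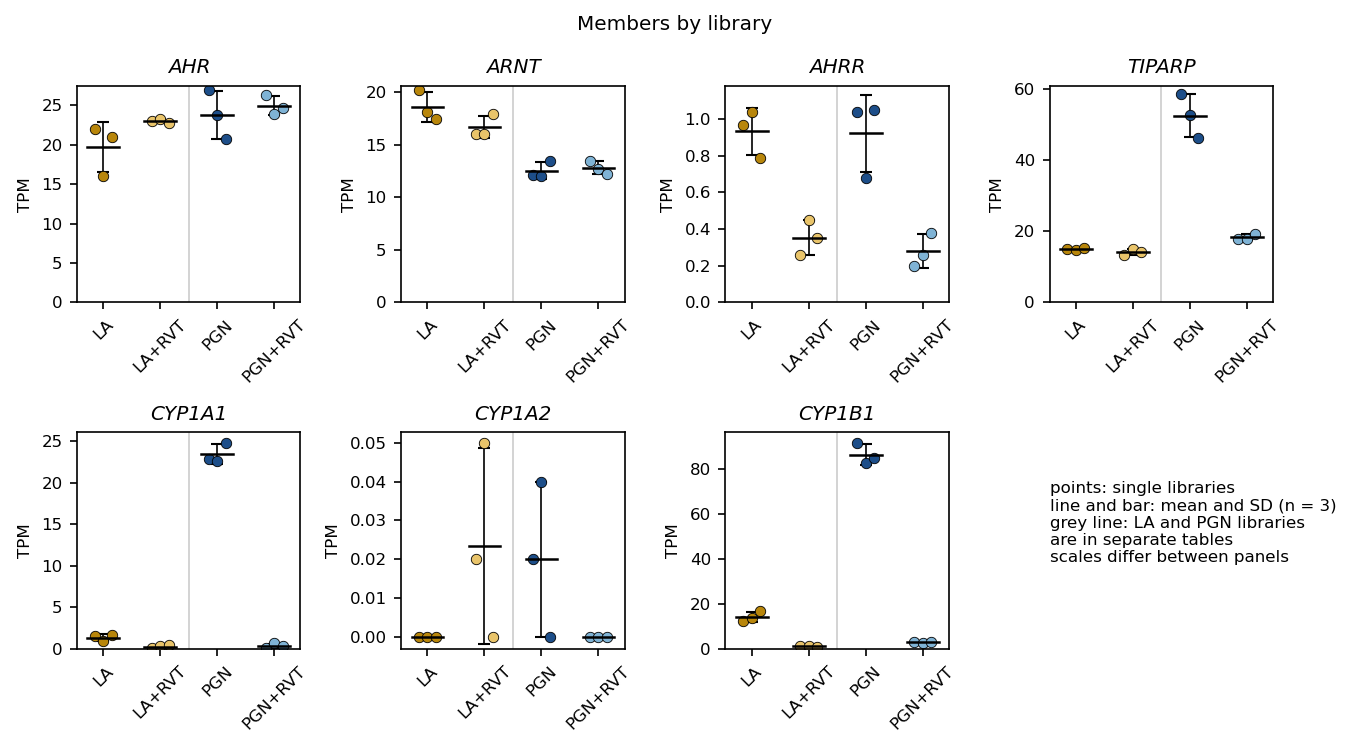
TPM of the 7 members in each of the 12 libraries, by treatment; points are libraries, and the line and bar are the mean and SD of 3. The 3 PGN libraries stand above all others for CYP1B1 (82.4 to 91.5 TPM), CYP1A1 (22.7 to 24.8 TPM) and TIPARP (46.4 to 58.5 TPM), while AHR lies between 16.1 and 26.9 TPM in all groups.

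The receptor gene AHR (ENSG00000106546, chromosome 7, 16916359 to 17346152 on GRCh38, plus strand) had 22.0, 16.1 and 21.0 TPM in the LA libraries and 23.1, 23.3 and 22.8 TPM in the LA+RVT libraries. In PGN libraries it was at 26.9, 23.8 and 20.8 TPM and in PGN+RVT libraries at 26.3, 23.9 and 24.7 TPM with PGN+RVT. Every LA+RVT library was above every LA library, the lowest of which was LA replicate 2, and the PGN groups overlapped. The log2 fold change was 0.23 ± 0.11 (SE) in the LA arm (95% interval -0.038 to 0.49, limma adjusted p = 0.224) and 0.073 ± 0.097 in the PGN arm (-0.15 to 0.30, limma adjusted p = 0.662).

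ARNT (ENSG00000143437, chromosome 1, 150809705 to 150876768, minus strand), the partner that AHR shares with the hypoxia factors, had 20.2, 18.1 and 17.4 TPM in the LA libraries and 16.1, 16.1 and 17.9 TPM in the LA+RVT libraries. With PGN it was at 12.2, 12.01 and 13.5 TPM, and with PGN+RVT at 13.5, 12.7 and 12.2 TPM. The groups of each arm overlapped, and all libraries of the PGN arm lay below all of the LA arm. RVT changed it by -0.15 ± 0.077 (limma adjusted p = 0.254) and 0.028 ± 0.077 (limma adjusted p = 0.842) on the log2 scale, with intervals of -0.33 to 0.036 and -0.15 to 0.21.

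CYP1B1 (ENSG00000138061, chromosome 2, 38066973 to 38109902, minus strand), which hydroxylates oestrogens and polycyclic hydrocarbons outside the liver, had the highest level of the members with PGN. Its values were 91.5, 82.4 and 84.7 TPM with PGN and 3.08, 2.56 and 3.02 TPM with PGN+RVT. With LA they were 12.2, 13.6 and 16.7 TPM, and with LA+RVT 1.40, 1.06 and 0.76 TPM. Neither arm showed any overlap, and the 4 groups ranked PGN, LA, PGN+RVT and LA+RVT with no overlap between neighbours. The mean was 29.9 times as high without RVT as with it in the PGN arm (86.2 ± 4.71 against 2.89 ± 0.284 TPM, SD, n = 3) and 13.2 times in the LA arm (14.2 ± 2.32 against 1.07 ± 0.320 TPM). On the log2(TPM + 1) scale it fell by 4.49 ± 0.080 (limma adjusted p = 1.05e-06) and 2.87 ± 0.16 (limma adjusted p = 0.000232). These changes were the third lowest of 14622 genes and the second lowest of 15409, and both calls held under all 13 alternatives of each arm.

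CYP1A1 (ENSG00000140465, chromosome 15, 74719542 to 74725610, minus strand), the classic inducible member of the family, was highest with PGN. It stood at 22.9, 22.7 and 24.8 TPM there and at 0.15, 0.65 and 0.33 TPM with PGN+RVT. The LA libraries had 1.58, 0.89 and 1.62 TPM and the LA+RVT libraries 0.09, 0.30 and 0.44 TPM. All libraries with RVT were below 1 TPM and no groups within an arm overlapped. In the PGN arm CYP1A1 fell by 4.17 ± 0.15 on the log2(TPM + 1) scale (limma adjusted p = 1.72e-05), the fourth lowest change of 14622. The mean there was 62.3 times as high without RVT, a ratio that rests on a mean of 0.377 ± 0.253 TPM with it (n = 3). Without PGN+RVT replicate 2 that mean was 0.24 TPM and the ratio 97.8. The change with LA was -0.88 ± 0.18 in the fit without a filter and was not called (limma adjusted p = 0.0524; 0.0519 to 0.145 over 11 alternatives), with an interval of -1.33 to -0.44. At levels this low the pseudocount weighs heavily: with 0.1 in place of 1 the value was -2.04.

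CYP1A2 (ENSG00000140505, chromosome 15, 74748844 to 74756202, plus strand), the neighbour of CYP1A1 and mainly a liver enzyme, was listed at 0 in 8 of 12 libraries. The highest value was 0.05 TPM, in an LA+RVT library, and no fold is given.

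TIPARP (ENSG00000163659, chromosome 3, 156673235 to 156706770, plus strand) was called in the PGN arm and not in the LA arm. It stood at 58.5, 52.7 and 46.4 TPM with PGN and at 17.9, 17.7 and 19.3 TPM with PGN+RVT. Its LA values were 14.9, 14.9 and 15.3 TPM and its LA+RVT values 13.4, 15.1 and 14.1 TPM. The PGN groups were far apart and the LA groups overlapped. TIPARP fell by 1.47 ± 0.090 on the log2 scale in the PGN arm (limma adjusted p = 0.000217), from 52.5 ± 6.06 to 18.3 ± 0.894 TPM (n = 3 per group). For LA the value was -0.077 ± 0.064 (limma adjusted p = 0.474), with an interval of -0.23 to 0.076. The bidirectional non-coding gene TIPARP-AS1, which shares 37 exon bases with TIPARP in GENCODE 29, was between 1.44 and 5.49 TPM and was not called in either arm (limma adjusted p = 0.724 and 0.766).

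AHRR (ENSG00000063438, chromosome 5, 304176 to 438291, plus strand) was low in all libraries. The LA libraries had 0.97, 1.04 and 0.79 TPM and the LA+RVT libraries 0.26, 0.45 and 0.35 TPM. With PGN it was at 1.04, 0.68 and 1.05 TPM and with PGN+RVT at 0.20, 0.26 and 0.38 TPM. Neither pair of groups overlapped, and the means with LA and PGN (0.933 and 0.923 TPM) lay side by side. The log2 fold changes without a filter were -0.51 ± 0.11 (limma adjusted p = 0.0513) and -0.58 ± 0.12 (limma adjusted p = 0.0536), neither called. The PGN value was called with library medians equalised (limma adjusted p = 0.0469).

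A second row at this locus, ENSG00000288622, bears the name PDCD6-AHRR, a readthrough of AHRR with its upstream neighbour, in the PGN table. In the LA table the same identifier has another name and is described as the repressor itself. Exons of this row are not in GENCODE 29, and how reads were divided between it and AHRR cannot be seen from TPM. It stood at 5.12, 4.81 and 4.89 TPM with PGN and at 0.92, 0.85 and 0.66 TPM with PGN+RVT. The LA values were 1.87, 1.53 and 2.15 TPM and those with LA+RVT 0.73, 0.62 and 0.98 TPM. It was higher than the AHRR row in every library, and fell by 1.72 ± 0.13 on the log2 scale in the PGN arm (limma adjusted p = 0.000453). For LA it fell by 0.68 ± 0.18 (limma adjusted p = 0.0438), a call lost under 9 of 12 alternatives, among them leaving out any 1 library (adjusted p 0.0611 to 0.143). In each arm this row passed the filter only through its libraries without RVT, so both calls are a description. Its means were 0.81 TPM with PGN+RVT and 0.777 TPM with LA+RVT. PDCD6 itself stood at 179 to 214 TPM and was not called (limma adjusted p = 0.256 and 0.428). It shares 244 exon bases with AHRR in GENCODE 29, and the part of its reads in the AHRR and readthrough rows was not tested. When the AHRR and readthrough rows were summed before the fit, AHRR passed the filter and fell in both arms. This sum was fitted under the main settings only, without alternatives. The sum went from 5.86 ± 0.342 to 1.09 ± 0.0436 TPM with PGN (limma adjusted p = 0.000268) and from 2.78 ± 0.191 to 1.13 ± 0.178 TPM with LA (limma adjusted p = 0.0110; n = 3 per group).

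CYP1B1-AS1 (ENSG00000232973, chromosome 2, 38073447 to 38231651, plus strand) is antisense to CYP1B1, with 678 of its 7447 exon bases shared. No source used here says if strand was used in counting, so reads of the 2 genes cannot be told apart in that overlap. The antisense gene fell from 4.05 to 0.693 TPM in mean in the PGN arm (log2 fold change -1.59 ± 0.17, limma adjusted p = 0.00188). The gene passed the filter in that arm only through its PGN libraries, so this call is a description. Its LA and LA+RVT means were 3.16 and 1.66 TPM (limma adjusted p = 0.0647). Its mean with PGN was 1.28 times that with LA, where that of CYP1B1 was 6.09 times.

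**Figure D2:**
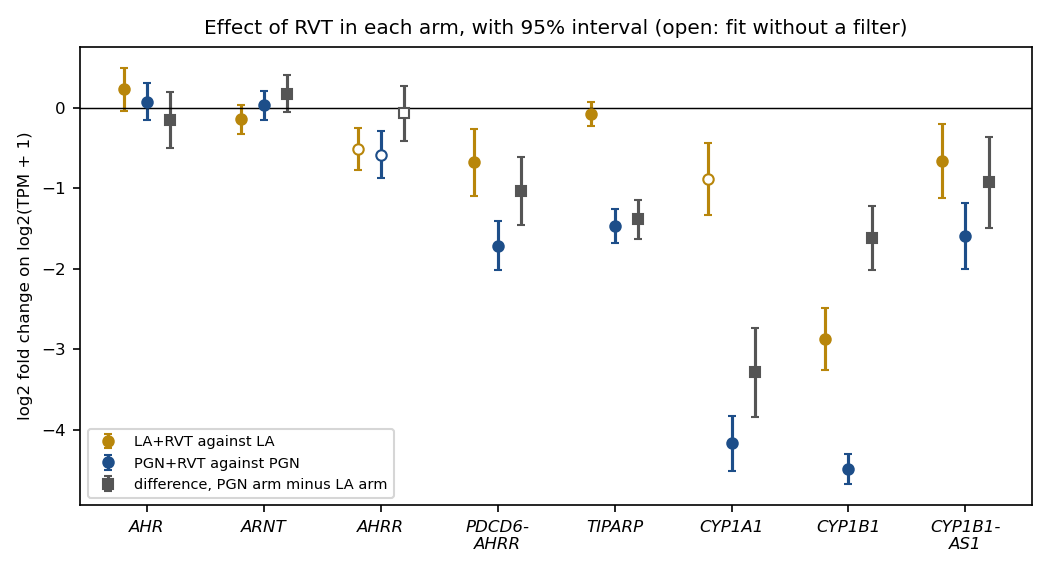
Log2 fold change of RVT on the log2(TPM + 1) scale, with 95% interval, for 6 members and 2 genes that share their loci; gold is the LA arm, blue the PGN arm and grey squares their difference, with open symbols for the fit without a filter. CYP1B1 lies at -2.87 and -4.49, TIPARP at -0.077 and -1.47, and AHR and ARNT have intervals that cross 0.

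The third comparison asked whether the RVT effect differed between the stimuli, as the PGN change minus the LA change over all 12 libraries, on genes in both tables. Of the 5 members tested, 3 had a more negative change in the PGN arm, and 14.8% of 15177 genes were called (7.03% in that direction, 7.73% in the other, and 0.705% with a difference of at least 2-fold in that direction). CYP1A1 differed by -3.28 ± 0.25 (limma adjusted p = 1.46e-05), CYP1B1 by -1.62 ± 0.18 (limma adjusted p = 0.000191) and TIPARP by -1.39 ± 0.11 (limma adjusted p = 1.95e-05). CYP1A1 passed the filter of this fit only through its PGN libraries, which makes its call and the count of 3 a description. Its mean with LA was 1.36 TPM, so on the log2(TPM + 1) scale little fall was possible in that arm. Its means with RVT were 0.277 TPM with LA and 0.377 TPM with PGN, so the difference cannot show a weaker RVT effect under LA. CYP1B1 also had less room to fall from its LA mean (14.2 TPM) than from its PGN mean (86.2 TPM). All 3 calls held under the 19 alternatives of this comparison. For AHR the difference was -0.16 ± 0.16 (limma adjusted p = 0.576; interval -0.50 to 0.19) and for ARNT 0.17 ± 0.11 (limma adjusted p = 0.320; interval -0.059 to 0.41). AHRR gave -0.069 ± 0.15 in its own row without a filter, where 5.15% of genes were called (limma adjusted p = 0.859), and -0.88 ± 0.16 when summed with the readthrough row (limma adjusted p = 0.00346).

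Levels without RVT lay far apart between the stimuli for the same genes. The PGN mean was 17.2 times the LA mean for CYP1A1, 6.09 times for CYP1B1 and 3.50 times for TIPARP. With RVT these ratios were 1.36, 2.69 and 1.29. The CYP1A1 libraries overlapped, and its ratio was 0.867 without PGN+RVT replicate 2. Levels across stimuli are set side by side only and were not tested, since the libraries come from separate tables in which 1432 shared identifiers carry different names. Whether the gene models differ was not tested. Within the PGN group the members ranked CYP1B1, TIPARP, AHR, CYP1A1, ARNT, AHRR and CYP1A2 by mean TPM, with AHR and CYP1A1 overlapping. With PGN+RVT the order was AHR, TIPARP, ARNT, CYP1B1, CYP1A1, AHRR and CYP1A2, with CYP1A1 and AHRR overlapping. AHR and ARNT ranked first and second with LA and with LA+RVT, ahead of TIPARP and CYP1B1. With LA the libraries of AHR overlapped with those of ARNT and of CYP1B1.

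**Figure D3:**
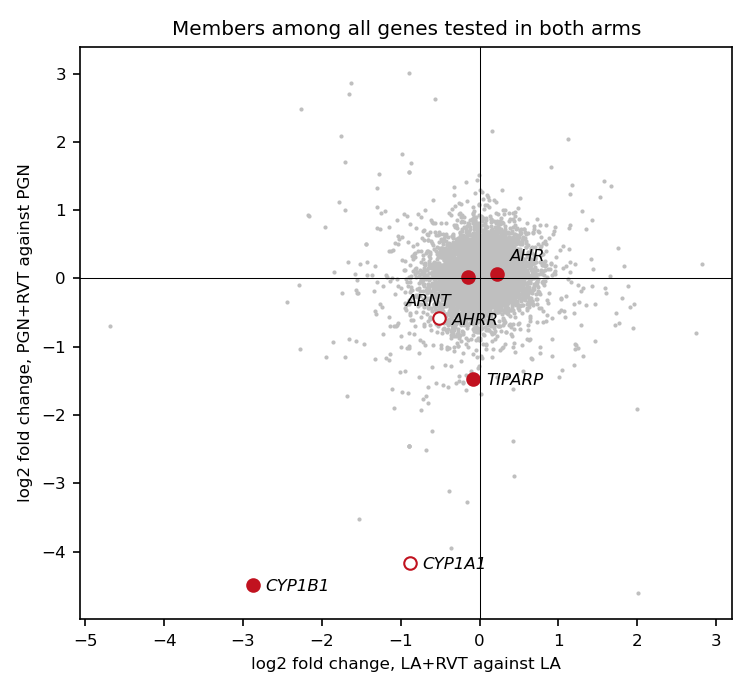
Log2 fold change of RVT in the LA arm (x axis) and the PGN arm (y axis) for each gene tested in both arms (grey) and for 6 members (red; open where a value comes from the fit without a filter). CYP1B1 stands at the lower left at -2.87 and -4.49, CYP1A1 at -0.88 and -4.17, and AHR and ARNT lie in the cloud around 0.

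Of 19 other genes reported as targets of the receptor, 16 were tested in the PGN arm, where 10 fell and 2 rose (4.92% and 10.6% of all genes), with a median log2 fold change of -0.69 against 0.064 over all genes. With LA 7 of 15 fell and 2 rose, beside 5.07% and 10.7% of all genes (8 and 1 with library medians equalised or quantile normalization), with a median of -0.24 against 0.036. The list was chosen with earlier results of these data known, so these counts beside all genes are a description. Many of these genes also answer to other signals, and the keratinocyte marker sums given above moved in the same direction. The part of these in the counts was not tested. EREG, an EGF-like growth factor, fell from 60.1 ± 8.39 to 16.3 ± 1.70 TPM with PGN (limma adjusted p = 0.000220) and from 19.1 ± 0.443 to 11.8 ± 1.19 TPM with LA (limma adjusted p = 0.00320). SLC7A5, the large neutral amino acid transporter, fell from 939 ± 28.3 to 513 ± 5.88 TPM and from 356 ± 4.10 to 297 ± 2.58 TPM (limma adjusted p = 2.44e-05 and 0.000808). STC2, a secreted glycoprotein, fell from 133 ± 3.13 to 45.2 ± 1.60 TPM with PGN (limma adjusted p = 8.38e-06) and was not called with LA (limma adjusted p = 0.367). FLG, the filaggrin gene, which is also on the keratinocyte marker list, fell from 6.37 ± 0.223 to 1.04 ± 0.0902 TPM with PGN (limma adjusted p = 0.000215) and was under the filter with LA. IVL is on both lists too and is named here after its values were seen. It fell from 44.4 ± 2.04 to 28.6 ± 2.57 TPM with PGN (limma adjusted p = 0.00291) and was not called with LA (limma adjusted p = 0.156). NQO1, a quinone reductase shared with the NRF2 pathway and chosen here after its values were seen, went the other way. It rose from 208 ± 12.5 to 270 ± 16.6 TPM with PGN (limma adjusted p = 0.00932) and from 237 ± 0.911 to 261 ± 8.72 TPM with LA (limma adjusted p = 0.0250), the latter lost under 9 of 13 alternatives (adjusted p up to 0.107). The other genes that rose, also named after their values were seen, were OVOL1 with PGN and HES1 with LA. OVOL1 changed by 0.60 with PGN and -0.24 with LA on the log2 scale (limma adjusted p = 0.00343 and 0.0257). HES1 rose by 0.44 with LA (limma adjusted p = 0.00853) and was not called with PGN (limma adjusted p = 0.726). Alternatives were not run for either gene.

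Of 6 genes of the cytosolic receptor complex, its chaperones and its turnover that are reported here, 3 rose and 0 fell in the LA arm, and 0 rose and 1 fell in the PGN arm (0 fell with quantile normalization). Of all genes, 15.7% and 15.6% were called. HSP90AA1 and HSP90AB1, the HSP90 chaperones, rose by 0.61 ± 0.023 and 0.31 ± 0.024 on the log2 scale with LA (limma adjusted p = 5.90e-05 and 0.000669). PTGES3, the co-chaperone p23, rose by 0.22 ± 0.026 (limma adjusted p = 0.00288). In the PGN arm HSP90AB1 fell by 0.12 ± 0.030 (limma adjusted p = 0.0364), a call lost under 9 of 13 alternatives, including without any 1 library (adjusted p 0.0553 to 0.119). Of 9 coactivators, 1 was called in each arm, a smaller share than the 15.7% and 15.6% of all genes, SMARCA4 with LA (0.21 ± 0.040, limma adjusted p = 0.0153) and NRIP1 with PGN (-0.36 ± 0.089, limma adjusted p = 0.0354). SMARCA4 was lost without LA replicate 1 or 3 (adjusted p = 0.0547 and 0.0531), and NRIP1 without any 1 of its 6 libraries (adjusted p 0.0579 to 0.104).

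Of 13 other bHLH-PAS genes, 8 were tested with LA, where 3 rose and 1 fell (10.7% and 5.07% of all genes), and 7 with PGN, where 0 were called by limma (2 were lower with library medians equalised and 1 with quantile normalization, and 2 had an unadjusted p under 0.05). The hypoxia factors HIF1A and EPAS1 and the clock gene ARNTL2 rose with RVT in the LA arm by 0.26 ± 0.037, 0.27 ± 0.038 and 0.30 ± 0.043 on the log2 scale (limma adjusted p = 0.00621, 0.00524 and 0.00556). ARNT2, the paralogue of ARNT, fell from 9.84 to 7.13 TPM in mean (limma adjusted p = 0.0271), a call lost under 7 of 13 alternatives (adjusted p up to 0.0890 without LA replicate 1).

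Among 15 genes that make, break down or carry tryptophan-derived ligands, 9 were tested. In the PGN arm 2 rose and 1 fell, and in the LA arm 1 rose and 1 fell (with library medians equalised 1 and 3, and 0 and 1). Of all genes 15.6% and 15.7% were called, so the 2 of 9 in the LA arm lie near the background. QPRT, which takes the pathway on to NAD, rose from 29.6 ± 2.21 to 65.7 ± 3.53 TPM with PGN (limma adjusted p = 0.000235) and from 69.7 ± 3.47 to 80.9 ± 2.50 TPM with LA (limma adjusted p = 0.0260, lost under 7 of 13 alternatives, adjusted p up to 0.0914). SLC3A2, the partner chain of SLC7A5, fell by 0.35 ± 0.048 with PGN and 0.17 ± 0.030 with LA (limma adjusted p = 0.00438 and 0.0120). KYAT3, a kynurenine aminotransferase, rose by 0.27 ± 0.068 with PGN (limma adjusted p = 0.0401, lost under 9 of 13 alternatives, adjusted p up to 0.142 without PGN+RVT replicate 1).

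Of 53 other cytochrome P450 genes in each table, 17 were tested with PGN, where 4 rose and 0 fell (3 and 1 with library medians equalised), and 19 with LA, where 1 rose and 2 fell. Of all genes 15.6% and 15.7% were called, so the 3 of 19 with LA are at the background. CYP51A1, the sterol demethylase, rose by 0.73 ± 0.076 with PGN and 0.32 ± 0.039 with LA (limma adjusted p = 0.00145 and 0.00316). CYP4F11, a fatty acid hydroxylase, rose from 2.71 ± 0.260 to 6.04 ± 0.694 TPM with PGN (limma adjusted p = 0.00359), and CYP20A1 by 0.49 ± 0.10 (limma adjusted p = 0.0225, lost under 5 of 13 alternatives, adjusted p up to 0.0814 without PGN+RVT replicate 1). CYP2W1 fell from 4.98 ± 0.331 to 1.66 ± 0.281 TPM with LA (limma adjusted p = 0.00225). Of 11 genes that supply electrons to P450 enzymes or handle their products, 9 were tested. In the PGN arm 5 rose and 1 fell (3 and 1 with library medians equalised), and in the LA arm 0 rose and 1 fell (0 with quantile normalization), beside 10.6% and 4.92% of all genes in the PGN arm and 10.7% and 5.07% in the LA arm. Those that rose with PGN included SULT1A1, a phenol sulfotransferase (from 19.3 ± 0.113 to 37.2 ± 6.28 TPM, limma adjusted p = 0.00288), EPHX1, the microsomal epoxide hydrolase (0.52 ± 0.054, limma adjusted p = 0.00145), and GSTP1, a glutathione transferase (0.25 ± 0.032, limma adjusted p = 0.00351; 0.0530 with library medians equalised). POR, the reductase that feeds these enzymes, rose by 0.39 ± 0.087 (limma adjusted p = 0.0246), a call lost under 8 of 13 alternatives (adjusted p up to 0.0890 without PGN+RVT replicate 1). GSTP1 fell by 0.13 ± 0.017 with LA (limma adjusted p = 0.00417; 0.0597 with quantile normalization).

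**Figure D4:**
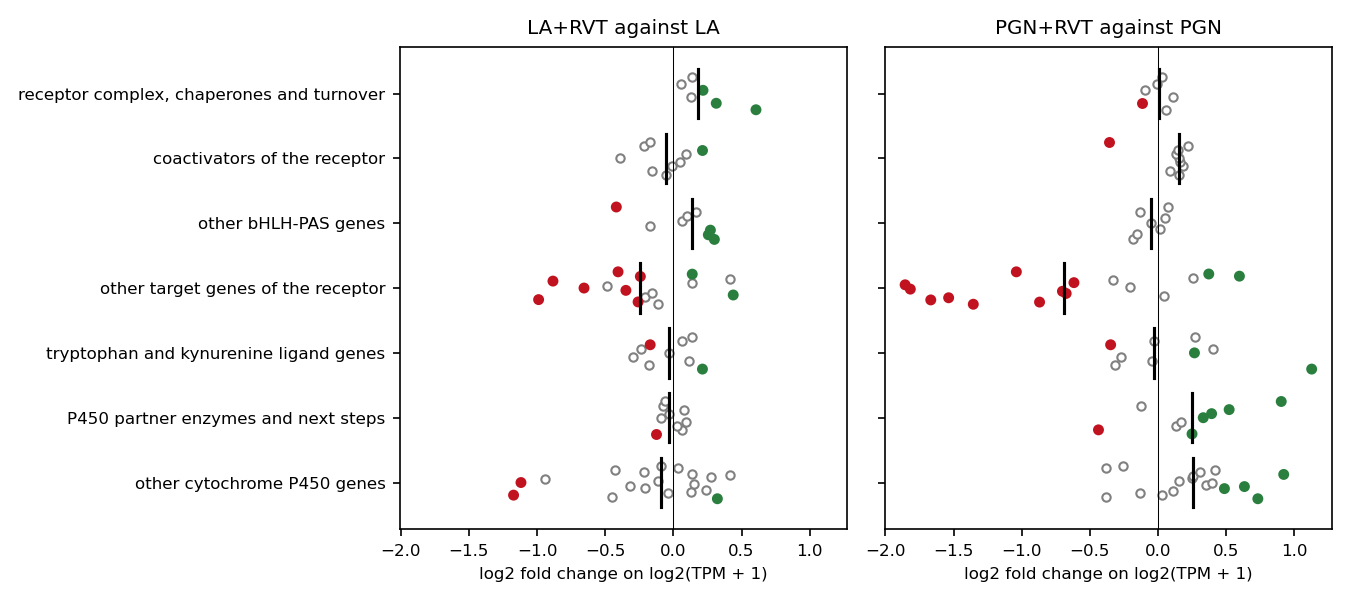
Log2 fold change of RVT for each tested gene of 7 lists around the receptor, in the LA arm (left) and the PGN arm (right); filled points passed an adjusted p of 0.05 (red lower, green higher) and the black bar is the list's median. The list of other target genes lies lowest, with 10 of 16 lower in the PGN arm. All lists were chosen with earlier results of these data known.

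Genes with the most similar profile were sought for the 4 members that passed the filter in both arms, by Pearson correlation of log2(TPM + 1) over 12 libraries centred within each arm, among 10529 genes averaging 5 TPM or more. These correlations describe libraries that share treatments and scaling and carry no test. For CYP1B1 the closest were LOXL2 (r = 0.992), a lysyl oxidase, ETS2 (0.990), a transcription factor, and MCM6 (0.990), a replicative helicase subunit. For TIPARP they were the cytokine gene IL1A (0.994), IGFBP3 (0.994), which binds insulin-like growth factors, and the proteoglycan gene SDC4 (0.993). LOXL2 stood at means of 87.5, 63.7, 106 and 63.8 TPM with LA, LA+RVT, PGN and PGN+RVT, a smaller fold range than that of CYP1B1. IGFBP3 stood at 288, 294, 595 and 263 TPM in the same order, so its PGN mean was the highest of the 4, as that of TIPARP was. IL1A and SDC4 also had their highest mean with PGN. Unlike TIPARP, both were called lower in the LA arm (limma adjusted p = 0.0110 and 0.0395), SDC4 with its call lost under 8 of 13 alternatives. The closest genes to AHR were DHX36, SSX2IP and ATR (0.912 to 0.883) and to ARNT LZTFL1, PLD1 and TK1 (0.880 to 0.823).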

How the data were processed

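The authors deposited 2 tables of TPM with 1 column per library, one for the LA and one for the PGN libraries, per the file headers. The submitters' processing notes list HISAT2 2.1.0, RSEM 1.3.1, DESeq2 1.24.0 and build GRCh38.p13 without roles. The release of the annotation was not stated in any source used here. TPM keeps no depth and is a share of the library, so a gene can lose TPM because others gain. Groups and replicate numbers came from sample titles. The submitters call the replicates biological, but no label says that they came from separate cultures or runs, so the p-values reflect only how far these libraries spread, which may be technical.

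Two-sided limma tests (version 3.58.1, under R 4.3.3, with a trended prior) of RVT effects used log2(TPM + 1), which understates the change of low genes. Each arm used its own 6 libraries, and the difference used 12 with 1 mean per group. Genes under a mean of 1 TPM were left out. Members under this filter were read from the same fit without it. Tables of 60671 and 60666 genes share 60630 identifiers. Scripts were tested on simulated data. Positions came from GENCODE 29. The members and lists were chosen with earlier results of these data known. An entry of the receptor complex list and one of the immune marker list are not reported here, and their lists' counts leave them out. From each list up to 4 genes called in either arm are named, by smallest p. For profiles like a member's, the 3 genes of highest correlation are named. Intervals are 95%. Alternatives were no filter or a mean of 5 TPM, a pseudocount of 0.1, equalised medians, quantile normalization, a robust prior, a replicate block and leaving out each library. Added after the data were seen were runs without a filter for low members, the summed AHRR rows, the same alternatives for named genes, and list counts under 2 scalings.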

Additional observations from a re-analysis of the deposited data

Results flagged for a closer look

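The test of the difference, PGN arm minus LA arm, passed its threshold (limma adjusted p under 0.05) for the following genes among those named above, given as log2 differences. Among the members these were CYP1A1 (-3.28), CYP1B1 (-1.62) and TIPARP (-1.39), with RVT effects more negative under PGN. CYP1A1 passed the filter of that fit only through its PGN libraries, so its call is a description. It also had little room to fall from its LA mean of 1.36 TPM. At the members' loci the genes were PDCD6-AHRR (-1.04) and CYP1B1-AS1 (-0.93), the latter lost under 9 of 18 alternatives (adjusted p up to 0.0920 without a filter). The PDCD6-AHRR row passed the filter of that fit only through its libraries without RVT, so its call is a description. Among other target genes the named ones were FLG (-1.72), STC2 (-1.33), EREG (-1.16) and SLC7A5 (-0.61). Of the 16 tested genes of that list 9 were lower and 1, OVOL1 (0.84), was higher. Of all 15177 genes tested, 7.03% were lower and 7.73% higher, the background for each list count here. The lists were chosen with earlier results of these data known, so their counts are a description. OVOL1 was named after its value was seen. FLG, among the 9, was under the filter with LA and passed it in this fit through its PGN arm libraries, so its call is a description. In the receptor complex HSP90AA1 (-0.54), HSP90AB1 (-0.43) and PTGES3 (-0.32) were lower (3 of 6 tested, with 0 higher). Of bHLH-PAS genes, ARNTL2 (-0.49), HIF1A (-0.41) and EPAS1 (-0.25) were lower and ARNT2 (0.49) higher (3 and 1 of 8 tested). QPRT (0.91), KYAT3 (0.30), SULT1A1 (0.97), EPHX1 (0.45), POR (0.42), GSTP1 (0.38), CYP2W1 (1.198), CYP4F11 (0.78) and CYP51A1 (0.41) were higher. Of all tested genes of their lists, 2 of 9 tryptophan-related genes, 6 of 18 other P450 genes and 5 of 9 partner enzymes were higher and 0 lower. KYAT3 and EPHX1 were lost under 11 and 13 of 19 alternatives (adjusted p up to 0.109 and 0.110). PTGES3 was lost under 7 of 19 (up to 0.0869) and POR under the replicate block (0.0639).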

How the results depend on the processing

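Without a filter on low values, 1610 genes were called in the LA arm against 2426, and 1384 in the PGN arm against 2277. Leaving out 1 library gave 1428 to 1690 calls in the LA arm, 1095 to 1861 in the PGN arm and 1714 to 2250 in the difference (2240 with all), with fewer samples in each fit. The count moved by over 1.5 times without any 1 LA library (1459, 1428 and 1463) or LA+RVT replicate 2 (1546), and without PGN replicate 2 (1236) or any 1 PGN+RVT library (1095, 1174 and 1201). With the replicate number as a block, 1502 genes were called in the LA arm, 1574 in the PGN arm and 1730 in the difference. Same-numbered libraries did not deviate together (r from -0.0702 to 0.0407 over 6 pairs), so the numbers are not read as a pairing, and the block changed no call of a member. For the members, 261 of 265 alternative values kept their direction, or stayed uncalled, on the same side of the threshold. The other 4 were AHRR, called with its rows summed (3) and with equalised medians in the PGN arm (1). For named genes and partners 1594 of 1741 kept their side, 132 lost a call, 15 gained one and 0 reversed. CYP1B1 ranged from -3.63 to -2.75 in the LA arm and from -4.86 to -4.43 in the PGN arm, CYP1A1 from -5.77 to -4.04 in the PGN arm. Apart from the smaller fits, the cause of these shifts was not tested. A mean of 5 TPM gave no value for members below it.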

Other observations

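The AHRR locus reads differently by row. By the AHRR row alone, LA and PGN libraries had means of 0.933 and 0.923 TPM, while the sum with the readthrough row was 2.78 ± 0.191 TPM with LA and 5.86 ± 0.342 TPM with PGN (SD, n = 3). With RVT both sums were near 1 TPM, at 1.13 ± 0.178 and 1.09 ± 0.0436 TPM. The identifier listed as PDCD6-AHRR in the LA table, ENSG00000286169, is another row and was at 0 in 5 of 6 libraries there, so a join of the tables by name would set 2 different rows side by side.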
